A study of Mus musculus with 19 samples.

Results

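The genes described here are the tumour suppressor p53 itself, coded by Trp53, and 9 of its textbook target genes, Cdkn1a, Mdm2, Ccng1, Bbc3, Fas, Perp, Pmaip1, Aen and Btg2. They were taken by symbol, and all 10 were found among the 24016 genes of the deposited expression table. They were selected on values of these same data, their RNA levels in the 5 libraries and the peaks near them, so these values are given as a description and support nothing by themselves. The study holds 19 mouse samples, of which 5 are RNA-seq, 8 ChIP-seq and 6 DamID libraries. The ESC (embryonic stem cells, line E14) were grown on irradiated mouse embryonic fibroblasts with LIF. For the knockdown they carried lentiviral hairpin #2 or #4 against Nup153, a nucleoporin of the nuclear basket, and for the control a non-target hairpin (shCtrl), with puromycin selection for at least 4 days in both. Neural progenitors (NeuP) were derived through embryoid bodies, Noggin, FGF2 and EGF, carried no hairpin, and have no line named in the labels. Line, transduction, selection and feeders therefore cannot be told apart from cell type in any comparison of NeuP with control ESC.

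p53 is a transcription factor that is kept low by Mdm2, a ubiquitin ligase whose own gene p53 switches on, which closes a negative feedback loop. After DNA damage or other stress it activates genes that stop the cell cycle, repair DNA or start apoptosis. ESC are known for abundant p53 RNA and protein, for a short G1 phase and for a low threshold to apoptosis. p53 binds DNA as a tetramer, on a pair of 10-base decamers that may be separated by a short spacer.

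The RNA libraries had depths of about 24300000 to 32200000 fragments, recovered from the steps of the low values. ESC markers such as Pou5f1 and Nanog summed to between 1755 and 1996 FPKM in the 3 ESC libraries and to 8.28 and 7.54 FPKM in NeuP. FPKM is the number of fragments per kilobase of transcript, scaled to the depth of the library, so levels can be compared between genes. NeuP markers such as Fabp7 and Pax6 summed to between 110.1 and 129.7 FPKM in ESC and to 4332 and 4780 FPKM in NeuP. Nup153 was at 39.4 FPKM in control ESC, 20.9 and 17.4 in hairpins #2 and #4, and 12.8 and 29.1 in NeuP replicates 1 and 2. The knockdown libraries carry different hairpins and so were transduced separately. Whether the NeuP replicates are separate cultures is not labelled, so their spread may be technical.

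Start-site windows of RefSeq (GRCm38.p6, 250 bases before to 50 after each listed start) matched 8 of the 10 genes, with 12 windows. Perp and Pmaip1 had no window and were not searched. The windows are shown for the genes in which a p53 decamer was found, because they print the motif that defines this pathway at the starts of these genes; the peaks described further on are in mm9 and were not placed on these windows. Capitals mark each match to the p53 consensus decamer, a sequence that is its own reverse complement, so both strands are covered. At least 1 match stood in 6 of the 12 windows, from 5 genes, against 8.36% of all 32851 windows of this length. Of these 6, 2 are overlapping windows of Aen that hold the same decamer. A pair of decamers with up to 13 bases between them stood in 1 window, that of an upstream start of Cdkn1a, against 0.0731% of all windows. Its decamers, GGACTAGCTT and GAACATGTCT, began 73 and 51 bases before that start and were separated by 12 bases. Only exact matches were marked. Directly after the second decamer stands tgacatgttc, which departs from the consensus in its first base alone and so was left unmarked. Which of these sequences p53 binds was not tested. The other listed start of Cdkn1a lies 2790 bases further downstream and its window held no match. The windows of Bbc3, Fas and Btg2 held none either, which says only that the letters are not in these windows.
Cdkn1a, upstream start, chr17:29090729-29091028, plus strand: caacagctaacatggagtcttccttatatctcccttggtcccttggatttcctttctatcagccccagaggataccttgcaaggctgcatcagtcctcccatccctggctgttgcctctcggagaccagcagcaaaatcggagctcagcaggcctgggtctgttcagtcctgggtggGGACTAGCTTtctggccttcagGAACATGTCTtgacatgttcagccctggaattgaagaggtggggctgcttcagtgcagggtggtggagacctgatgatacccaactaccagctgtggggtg
Cdkn1a, downstream start, chr17:29093519-29093818, plus strand: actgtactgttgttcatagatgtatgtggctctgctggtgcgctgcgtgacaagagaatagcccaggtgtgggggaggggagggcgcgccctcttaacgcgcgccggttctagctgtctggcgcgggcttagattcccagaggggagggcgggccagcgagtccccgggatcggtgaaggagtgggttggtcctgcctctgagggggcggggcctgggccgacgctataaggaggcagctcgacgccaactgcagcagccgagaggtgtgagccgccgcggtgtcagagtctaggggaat
Mdm2, chr10:117710709-117711008, minus strand: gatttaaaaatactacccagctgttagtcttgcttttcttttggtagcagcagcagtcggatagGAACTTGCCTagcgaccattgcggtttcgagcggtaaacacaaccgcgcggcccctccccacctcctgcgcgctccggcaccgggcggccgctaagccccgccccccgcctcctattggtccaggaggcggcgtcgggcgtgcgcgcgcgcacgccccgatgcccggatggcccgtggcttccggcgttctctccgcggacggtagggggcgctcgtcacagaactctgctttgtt
Ccng1, chr11:40755237-40755536, minus strand: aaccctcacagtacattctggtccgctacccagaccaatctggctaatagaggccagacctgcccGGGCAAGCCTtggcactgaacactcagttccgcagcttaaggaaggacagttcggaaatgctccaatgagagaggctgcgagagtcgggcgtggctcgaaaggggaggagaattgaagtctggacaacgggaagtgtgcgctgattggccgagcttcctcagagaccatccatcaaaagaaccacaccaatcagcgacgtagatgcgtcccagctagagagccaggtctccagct
Aen, chr7:78895808-78896107, plus strand: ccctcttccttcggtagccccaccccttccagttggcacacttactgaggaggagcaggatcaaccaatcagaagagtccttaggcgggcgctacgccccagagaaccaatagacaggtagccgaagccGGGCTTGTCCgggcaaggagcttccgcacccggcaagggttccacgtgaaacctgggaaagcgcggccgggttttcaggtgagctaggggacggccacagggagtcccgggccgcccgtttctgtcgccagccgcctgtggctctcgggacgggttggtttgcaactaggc
Trp53, chr11:69580109-69580408, plus strand: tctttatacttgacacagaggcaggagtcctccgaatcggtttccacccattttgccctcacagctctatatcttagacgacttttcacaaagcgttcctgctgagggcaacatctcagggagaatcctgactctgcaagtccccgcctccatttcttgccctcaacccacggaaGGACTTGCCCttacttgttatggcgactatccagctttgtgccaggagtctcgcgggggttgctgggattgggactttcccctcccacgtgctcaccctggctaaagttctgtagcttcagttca
The decamer of Mdm2, GAACTTGCCT, began 186 bases before the start, that of Ccng1, GGGCAAGCCT, 185 bases before, that of Aen, GGGCTTGTCC, 121 bases before the start shown and 10 bases after the other listed start, and that of Trp53, GGACTTGCCC, 75 bases before. The 12 windows held between 2 and 39 CpG dinucleotides with a median of 22, against a median of 7 over all windows, and the upstream Cdkn1a window was the one with 2. Bbc3 alone gave windows with 34, 30 and 39, of which those with 30 and 39 overlap.

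In control ESC 3 targets that feed back on p53 or stop the cycle stood highest. Ccng1, cyclin G1, which works with a phosphatase on Mdm2, was at 268 FPKM. Mdm2 was at 128 FPKM and Cdkn1a, the cyclin-dependent kinase inhibitor p21, at 127 FPKM. These levels were above those of at least 97.3% of the 13750 genes that reached 1 FPKM in any of the 5 libraries, and all 10 genes passed that filter. Pmaip1, the BH3-only death gene Noxa, was at 57.0 FPKM and Trp53 at 54.4 FPKM. Perp, a tetraspan membrane protein of desmosomes and of p53-dependent death, was at 45.2 FPKM, and the nuclease gene Aen and the antiproliferative gene Btg2 were both at 40.2 FPKM. Bbc3, the BH3-only death gene Puma, was at 19.6 FPKM and the death receptor gene Fas, the lowest, at 4.44 FPKM. The control had no replicate, and Mdm2 and Cdkn1a, or Aen and Btg2, cannot be ordered by it. In both hairpin libraries Cdkn1a was above Mdm2.

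**Figure D1:**
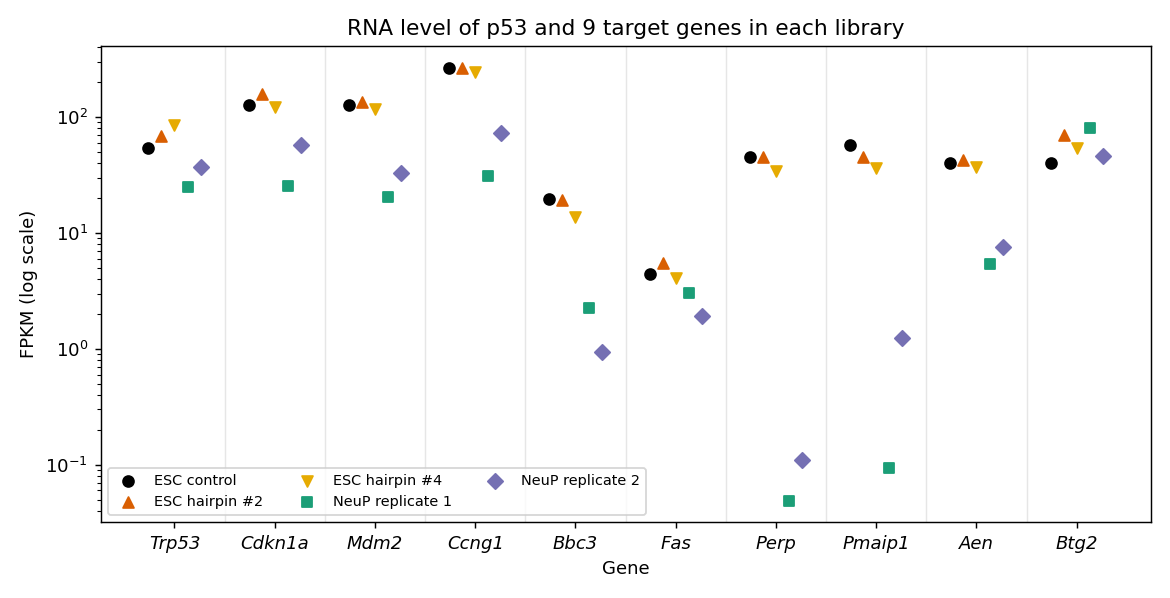
RNA level (FPKM, log axis) of the 10 genes, with 1 point per library and no averaging. For Perp and Pmaip1 the 3 ESC libraries sit between 34.2 and 57.0 FPKM and the NeuP libraries between 0.049 and 1.23 FPKM, while for Btg2 the NeuP libraries sit above the control.

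The first comparison asked whether p53 and its targets differ between Nup153 knockdown and control ESC. Trp53 was at 54.4 FPKM in control ESC, 69.4 in hairpin #2 and 85.6 in hairpin #4. Both hairpin libraries were above the control, and the fitted difference in log2(FPKM + 1) was 0.49 ± 0.34 (SE). This SE, like those below, comes from the fit of all 5 libraries and also carries the spread between the NeuP replicates. Over all genes tested the median absolute log2 difference was 0.09 between the hairpins and 0.41 between the NeuP replicates. Btg2 was at 40.2 FPKM in control ESC, 70.0 in hairpin #2 and 54.0 in hairpin #4, a difference of 0.60 ± 0.44. Trp53 and Btg2 were thus the 2 of the 10 genes with both hairpins above the control, an arrangement found in 55% of all genes tested.

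Among feedback and arrest genes the hairpins lay on both sides of the control or close to it. Cdkn1a was at 127 FPKM in control ESC, 158 in hairpin #2 and 122 in hairpin #4. Mdm2 was at 128, 137 and 119 FPKM in the same order, with a fitted difference of -0.01 ± 0.36 on the log2 scale. Ccng1 was at 268, 264 and 244 FPKM, with both hairpins below the control. For Cdkn1a and Mdm2 the hairpins spanned the control. After quantile normalization the difference of Ccng1 changed sign, from -0.08 to 0.10 on the log2 scale, and so did those of Mdm2, to 0.09, and of Fas, from 0.07 to -0.08.

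Among death genes, Pmaip1 was at 57.0 FPKM in control ESC, 45.3 in hairpin #2 and 36.4 in hairpin #4, a difference of -0.48 ± 0.51 in log2(FPKM + 1). Bbc3 was at 19.6, 19.1 and 13.8 FPKM in the same order, a difference of -0.26 ± 0.43. Pmaip1, Bbc3 and Ccng1 were the 3 genes with both hairpins below the control, which held for 29.5% of all genes tested. Perp was at 45.2, 45.3 and 34.2 FPKM, Aen at 40.2, 42.3 and 37.4, and Fas at 4.44, 5.46 and 4.07, so for these 3 the hairpins spanned the control. For 9 of the 10 genes hairpin #4 was below hairpin #2, the exception being Trp53, while over all genes tested the median difference between these hairpins was 0.01 on the log2 scale.

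No member was called in the knockdown by limma after Benjamini-Hochberg adjustment over all 13750 genes, and 0% of all genes were called higher and 0% lower. The targeted gene Nup153 was not called either, at -1.01 ± 0.55 (SE) on the log2 scale. A missing call in this fit therefore does not show that a gene is unchanged. None of the 10 had an unadjusted p under 0.05 in limma, against 814 of all genes, and voom on the recovered reads called 0 genes, with 0 of the 10 and 482 of all genes at that level. The median difference over the 10 genes was -0.01 on the log2 scale, beside 0.08 over all genes tested. That median was 0.08 with hairpin #2 alone as the knockdown, -0.10 with hairpin #4 alone, and 0.05 after quantile normalization, which moved the median of all genes to 0.00. With the 3 ESC libraries alone limma called 0 as well, with 3 of the 10 genes at an unadjusted p under 0.05, against 34% of all genes in that fit.

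**Figure D2:**
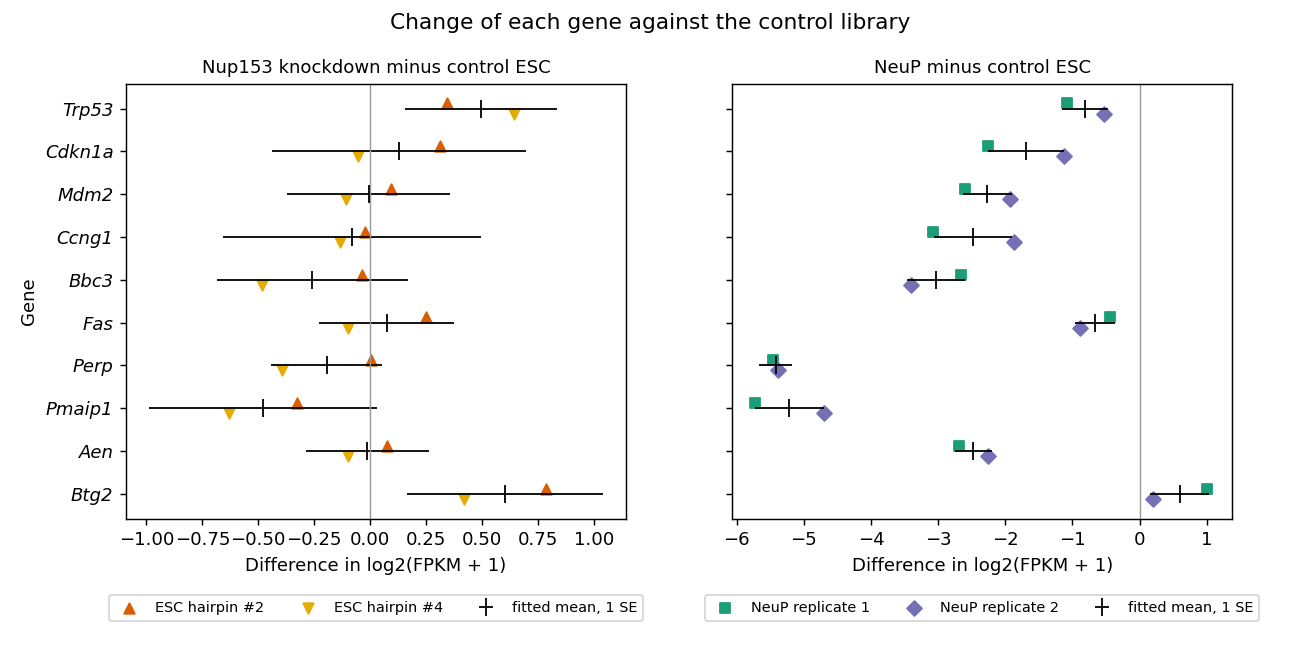
Difference in log2(FPKM + 1) from the single control library for each gene, in the Nup153 knockdown (left) and in NeuP (right, wider axis). Coloured points are single libraries, vertical ticks are fitted means and horizontal bars are 1 SE of the fit of all 5 libraries. The fitted knockdown differences run from -0.48 to 0.60, and the NeuP differences from -5.42 for Perp to 0.60 for Btg2.

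The second comparison asked how the 10 genes differ between NeuP and control ESC. Both NeuP libraries were below the control for 9 of the 10 genes, which held for 49.4% of all genes tested, and both were above it for Btg2 (36.8% of all genes). Limma called 6 of the 10 lower and 0 higher at an adjusted p under 0.05, beside 24.9% and 18.3% of all genes tested. The 6 were Mdm2, Ccng1, Bbc3, Perp, Pmaip1 and Aen. The median difference over the 10 genes was -2.37 in log2(FPKM + 1), beside -0.26 over all genes. Quantile normalization moved these medians to -1.96 and -0.06 and left the 6 calls in place.

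The death genes Perp, Pmaip1 and Bbc3 lay furthest below the control. Perp was at 45.2 FPKM in control ESC and at 0.049 and 0.109 FPKM in NeuP replicates 1 and 2. These NeuP values rest on 3 and 5 recovered reads, so the control was 922-fold higher than replicate 1 (95% exact Poisson interval 315 to 4470) and 414-fold higher than replicate 2 (178 to 1276). The intervals cover counting error in NeuP only. Pmaip1 was at 57.0 FPKM in control ESC and at 0.094 and 1.23 FPKM in NeuP, from 8 and 79 reads. The NeuP libraries differed 13.1-fold from each other for Pmaip1, yet both lay far below every ESC library. Bbc3 was at 19.6 FPKM in control ESC and 2.27 and 0.941 FPKM in NeuP, a difference of -3.03 ± 0.43 (SE) on the log2 scale. For these low levels the fitted size depends on the pseudocount. For Perp it was -5.42 with a pseudocount of 1, -8.00 with 0.1, -3.30 with 5 and -9.02 by voom, for Pmaip1 -5.21, -6.81, -3.46 and -7.32, and for Bbc3 -3.03, -3.65, -1.90 and -3.61.

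The feedback genes and Aen were lower by a smaller factor. Mdm2 was at 128 FPKM in control ESC and 26.5 ± 8.77 (SD, n = 2) in NeuP, 4.83-fold lower. Ccng1 was at 268 FPKM in control ESC and 51.6 ± 29.4 in NeuP, 5.19-fold lower, and it was the highest of the 10 genes in replicate 2 and second to Btg2 in replicate 1. Aen was at 40.2 FPKM in control ESC and 6.47 ± 1.57 in NeuP, 6.21-fold lower. In each of these 3 genes replicate 2 was above replicate 1 and below all 3 ESC libraries.

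The 4 genes that were not called include p53 itself. Trp53 was at 54.4 FPKM in control ESC and 25.1 and 37.4 FPKM in NeuP, a difference of -0.81 ± 0.34 in log2(FPKM + 1). Cdkn1a was at 127 FPKM in control ESC and 25.7 and 57.6 FPKM in NeuP, -1.69 ± 0.57, with a 2.24-fold gap between the replicates. Fas was at 4.44 FPKM in control ESC and 3.01 and 1.93 FPKM in NeuP, -0.67 ± 0.30. Btg2 was at 40.2 FPKM in control ESC and 81.4 and 46.2 FPKM in NeuP, 0.60 ± 0.44, and in replicate 1 it was the highest of the 10 genes. NeuP replicate 2 overlapped the range of the 3 ESC libraries for Btg2 and for none of the other 9 genes. The share of all genes outside that range was not computed, so nothing is read from this count.

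The NeuP calls rest on how the spread is estimated. Without hairpin #2, without hairpin #4, or with control and NeuP libraries alone, limma called 1 of the 10, Perp, and 13.3% to 13.5% of all genes, while the differences themselves were the same, because the same libraries enter them. Without NeuP replicate 1 it called 8 of the 10 and 77.2% of all genes, and without replicate 2 it called 9 of the 10, of which Btg2 was higher, and 81.8% of all genes, each with 1 NeuP library assumed to vary like the hairpins. With no filter on low values it called 4 of the 10 and 22.4% of all 24016 genes, and Mdm2 and Ccng1 lost their calls. The main fit called 43.2% of the 13750 genes tested.

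The NeuP libraries also differed from each other. Cdkn1a, Ccng1 and Pmaip1 differed by at least 1 in log2(FPKM + 1) between them, and 16.1% of all genes tested did. Replicate 2 was above replicate 1 for 7 of the 10 genes, and below it for Bbc3, Fas and Btg2. Over all genes tested the median of replicate 2 minus replicate 1 was 0.03 on the log2 scale. The share of all genes with replicate 2 above was not computed. Aurka, a mitotic kinase that phosphorylates p53, was at 0.643 FPKM in replicate 1 and 26.8 in replicate 2, and the checkpoint kinase gene Chek1 at 0.607 and 13.7, against 68.1 and 26.5 FPKM in control ESC. Fibroblast markers, 18 genes, summed to between 35.8 and 52.8 FPKM in the ESC libraries and to 110.9 and 181.9 FPKM in NeuP, but the 18 did not all differ in 1 direction. Of 17 tested in NeuP, 8 were called higher, 2 (Col1a2 and Tagln) lower and 7 neither. Col3a1 was at 0.036 FPKM in control ESC and 24.9 and 46.1 FPKM in NeuP, while Col1a2 was at 1.11 FPKM in control ESC and 0.012 and 0.235 FPKM in NeuP, and Tagln at 19.7 against 0.118 and 0. Col1a1, Acta2, Pdgfrb and the untested Lox were also below the control in both NeuP libraries. Lum was at 0 in all 3 ESC libraries, Dcn in both hairpins, S100a4 in hairpin #2 and Tagln in NeuP replicate 2. The part of proliferation or of fibroblast RNA in the differences was not tested. In bulk samples, fewer cells with a transcript and less of it in each cell cannot be told apart.

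The wider network was described with 3 lists of other p53 genes, which were chosen with earlier results of these data known. In the knockdown limma called 0 of 18 regulators and 0 of 36 other targets tested, beside the 0% of all genes above. An unadjusted p under 0.05 in limma was reached by 1 of these 18 regulators and 0 of the targets, beside 5.92% of all genes tested. Voom called 0 of all genes. The regulator was Ppm1d, the phosphatase Wip1 that switches off p53 signalling and is itself a p53 target. It was at 5.70 FPKM in control ESC, 12.1 in hairpin #2 and 13.2 in hairpin #4, and its difference of 1.03 ± 0.18 (SE) missed the threshold (limma, adjusted p = 0.825). Gadd45a, a damage-induced repair and arrest gene, was at 50.6, 30.7 and 26.4 FPKM in the same order, and the cytokine gene Lif at 5.23, 8.57 and 7.20 FPKM.

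In NeuP, 17 of the 36 other targets tested were lower and 2 were higher, against 24.9% and 18.3% of all genes, with a median difference of -1.31 on the log2 scale against -0.26 over all genes. By role, 11 of 23 genes of arrest, repair and metabolism were lower and 1 was higher, and 6 of 13 genes of death, surface and secretion were lower and 1 was higher. Siva1, a proapoptotic gene, fell by 4.06 ± 0.25 (SE, adjusted p = 0.00294, limma, Benjamini-Hochberg), from 119.6 FPKM to 7.05 and 5.52. Epha2, an ephrin receptor, fell by 3.45, Sfn, the arrest protein 14-3-3 sigma, fell by 3.26, and the glutaminase gene Gls2 fell by 2.91. The genes that rose were Rprm, the arrest gene Reprimo, by 1.90 ± 0.28, and Igfbp3, which binds insulin-like growth factors, from 2.96 FPKM to 53.3 and 218.0. Dram1, which stayed under 1 FPKM in every library, was the 1 target not tested.

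Of 18 regulators tested, 2 were lower and 4 higher in NeuP, against the same 24.9% and 18.3% of all genes, with a median difference of -0.60 against -0.26. Trp73, a p53 family member, was at 4.75 FPKM in control ESC and at 0.039 and 0.017 FPKM in NeuP, and the deacetylase gene Sirt1 fell by 0.86. The p53 kinase gene Hipk2 rose by 1.78 ± 0.43 (adjusted p = 0.0422, limma, Benjamini-Hochberg) and the acetyltransferase gene Crebbp by 1.44. Ppm1d was also higher in NeuP, at 14.3 and 14.5 FPKM. Its differences in NeuP and in the knockdown share the single control library. The list counts depend on which libraries enter the fit: without hairpin #2 or without hairpin #4, limma called 1 regulator, 1 gene of arrest, repair and metabolism and 1 of death, surface and secretion in either direction, without NeuP replicate 1 it called 12, 20 and 12, and without replicate 2 it called 14, 19 and 12. All genes were called at shares of 13.3%, 13.3%, 77.2% and 81.8% in these 4 fits.

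**Figure D3:**
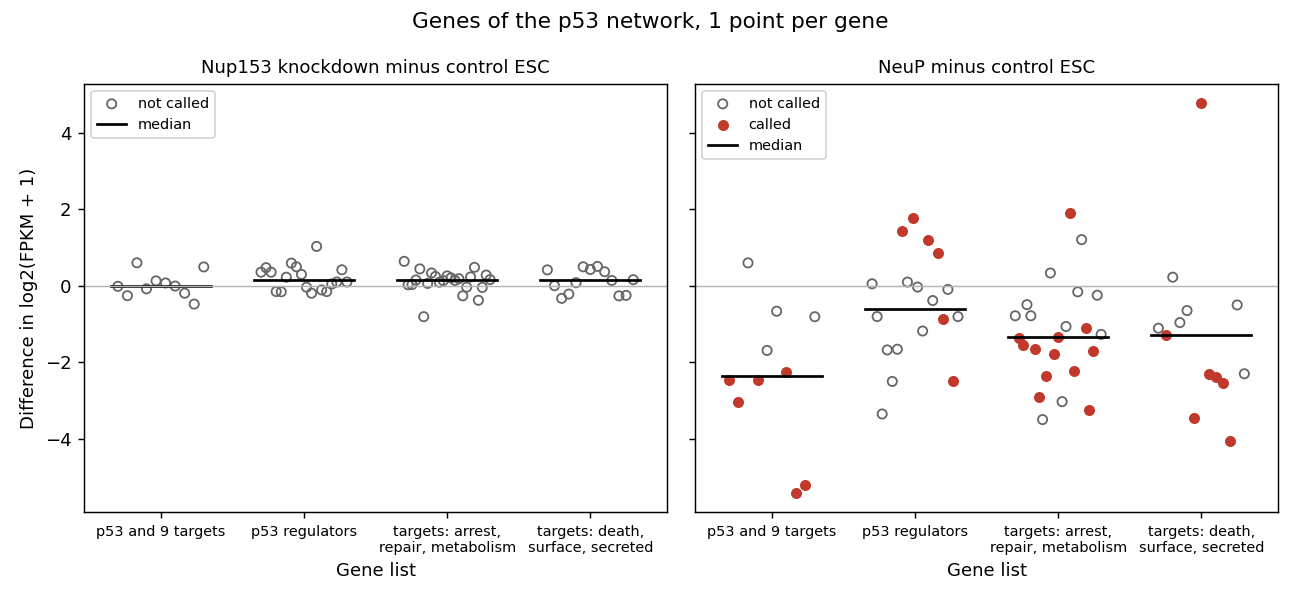
Difference in log2(FPKM + 1) from control ESC for each gene of 4 lists, in the Nup153 knockdown (left) and in NeuP (right). Filled points were called by limma at an adjusted p under 0.05, open points were not, and bars are list medians. No point is filled on the left, and on the right the medians are -2.37, -0.60, -1.34 and -1.28 from left to right.

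Of the genes tested, those with the profile over the 5 libraries most like that of Cdkn1a were Ccp110, Pole4 and Phospho1, by the root mean square difference of centred log2(FPKM + 1), 0.099 to 0.103. The closest to Trp53 were Mtfp1, Nudt7 and Mtr, at 0.057 to 0.065. Within 0.2 of the profile there were 113 genes for Cdkn1a and 308 for Trp53, so neither pattern stood alone.

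The third question was which of the mapped proteins had peaks at these genes. DamID marks sites that a protein fused to a bacterial adenine methylase has come near. Here the fusion was expressed from a heat shock promoter on a viral vector in E14 ESC without a hairpin. Cbx7 and Ring1B belong to Polycomb repressive complex 1, and Oct4 is a core pluripotency factor. Each list comes without peak heights and, for ChIP, from 1 library, so no replicate error exists. Positions are in mm9, and distances are from the start of the transcript in the deposited table. Mdm2 and Btg2 had no peak of any list within 2 kb of the start. The share of all genes with a peak of any list was not computed, so no count over all lists is read here.

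Nup153 regions reached the starts of 5 genes, Cdkn1a, Bbc3, Fas, Pmaip1 and Aen, and in each the region covered the start itself and reached into the gene. Over all 24016 genes 5.91% had such a region within 2 kb of the start and 8.79% within the gene. Over the 13750 genes tested, which include all 10, these shares were 8.91% and 13.3%. At Cdkn1a (NM_007669, chromosome 17, 29230717 to 29237667, plus strand) it ran from 29229157 to 29233104, that is from 1560 bp before to 2387 bp after the start. At Bbc3 (NM_133234, chromosome 7, 16894932 to 16903683, plus strand) it ran from 276 bp before to 2224 bp after the start, at Fas (NM_007987, chromosome 19, 34365149 to 34402260, plus strand) from 735 bp before to 1765 bp after, and at Aen (NM_001162939, chromosome 7, 86040813 to 86053719, plus strand) from 1932 bp before to 568 bp after. The nearest region to Mdm2 (NM_001288586, chromosome 10, 117125931 to 117147814, minus strand) was 93.8 kb away and the nearest to Ccng1 (NM_009831, chromosome 11, 40562054 to 40568788, minus strand) 889.0 kb away. In the knockdown the 5 genes with a Nup153 region differed from the control by -0.48 to 0.13 on the log2 scale with a median of -0.01, and the other 5 by -0.19 to 0.60 with a median of -0.01.

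Oct4 DamID regions lay within 2 kb of the starts of Ccng1, Fas and Pmaip1, against 2.8% of all genes and 3.94% of the genes tested. At Fas the Oct4 and Nup153 regions shared 2203 bp and at Pmaip1 (NM_021451, plus strand) they shared 2974 bp. Within the gene such regions were found in Mdm2, Fas and Pmaip1, against 6.55% of all genes and 9.84% of the genes tested. Oct4 ChIP peaks, which are 177 bp wide in the control list, were found at Trp53 alone, within 2 kb of the start and within the gene, against 0.733% and 2.22% of all genes. In hairpin #2 Trp53 was again the only one of the 10, against 0.712% and 2.47%. Over the genes tested these shares were 1.10% and 3.30% in control ESC and 1.11% and 3.66% in hairpin #2.

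Trp53 (NM_011640, chromosome 11, 69393861 to 69405375, plus strand) carried peaks of the most lists. The Oct4 peak of control ESC ran from 69395485 to 69395661, inside the transcript and 1624 to 1800 bp after the start, and the peak of hairpin #2 shared 168 bp with it. The Ring1B peaks of control ESC, hairpin #2 and hairpin #4 each covered the whole of this Oct4 peak, as did the Cbx7 peak. In NeuP, Ring1B peaks lay across the start, from 758 bp before to 183 bp after it, and from 791 to 1556 bp after it, the latter ending 67 bp short of the Oct4 peak. Exon and intron borders of mm9 were not used here.

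Ring1B peaks were found within 2 kb of the starts of Trp53, Cdkn1a, Ccng1 and Aen in control ESC, against 8.1% of all genes, and within the genes of Trp53, Cdkn1a, Mdm2 and Ccng1, against 16.3%. In hairpin #2 they were found at the starts of Trp53, Cdkn1a, Bbc3 and Pmaip1, against 24% of all genes, and within the same 4 genes, against 26.9%. In hairpin #4 they were found at the start of Trp53 alone, against 9.24%, and within Trp53 and Mdm2, against 17.2%. In NeuP the 4 genes with a peak at the start were the same as in control ESC, against 10.4%, and the 3 with a peak within the gene were Trp53, Cdkn1a and Ccng1, against 18%. Trp53 was thus the 1 gene with a Ring1B peak within 2 kb of its start in all 4 lists. This depends on the window. With 1 kb Trp53 was listed in hairpin #2 and NeuP only, and Cdkn1a was listed in control ESC but not in NeuP. The lists rest on 4990043 tags in control ESC, 30759517 and 9945428 tags in hairpins #2 and #4 and 33226939 tags in NeuP, and the part of this depth in which genes are listed was not tested.

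The position of the Ring1B peak at Cdkn1a differed between lists. In control ESC it covered the start, from 345 bp before to 627 bp after it, in hairpin #2 it ran from 970 to 1930 bp after, and in NeuP from 1096 to 1746 bp after. The control and hairpin #2 peaks did not overlap and were 342 bp apart, while the hairpin #2 peak covered the NeuP peak. All 3 lay inside the Nup153 region, and hairpin #4 had none, its nearest peak being 19.4 kb away. At Ccng1 the control and NeuP peaks lay between 603 and 1228 bp after the start and shared 376 bp, and at Aen both lay before the start, between 737 and 35 bp from it, and shared 299 bp.

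Cbx7 peaks stood within 2 kb of the starts of Trp53, Perp and Pmaip1, against 13.2% of all genes, and within Trp53 and Perp, against 20.4%. At Perp (NM_022032, chromosome 10, 18564877 to 18576878, plus strand), 1 peak ended 896 bp before the start and another ran from 919 to 1566 bp after it, and no other list had a peak within 2 kb. At Pmaip1 the Cbx7 peak ended 971 bp before the start. Perp and Pmaip1 were at 45.2 and 57.0 FPKM in control ESC, the condition of the Cbx7 list. Btg2 (NM_007570, chromosome 1, 135971442 to 135975732, minus strand) had its nearest peak, of Oct4 DamID, 2991 bp before the start.

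**Figure D4:**
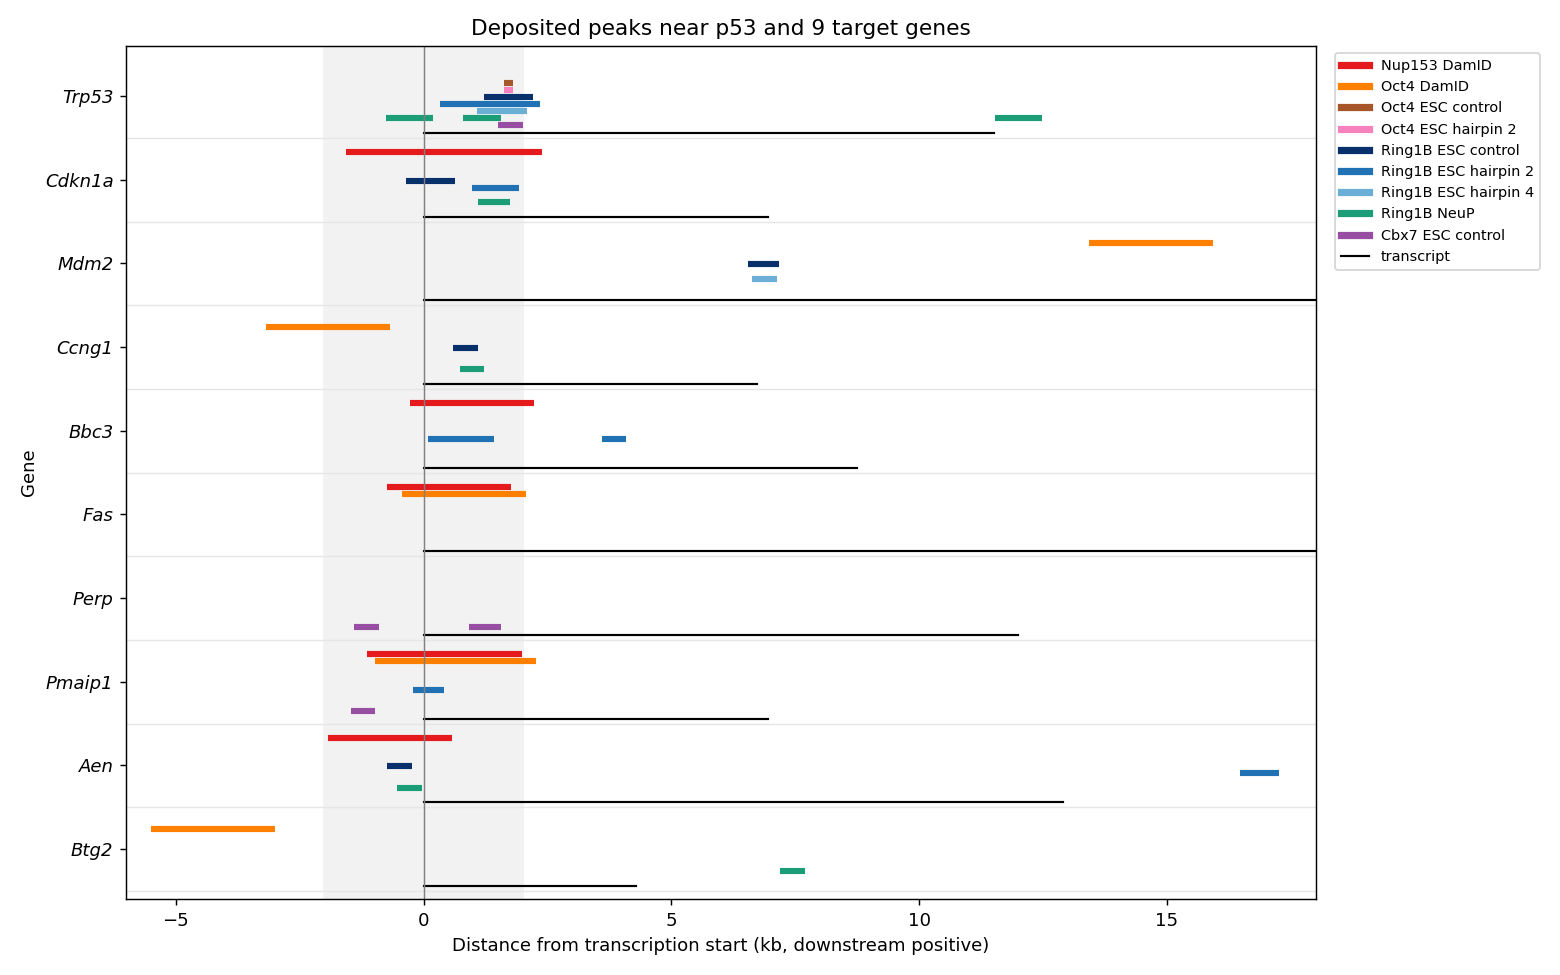
Deposited peaks within 5 kb of the 10 genes, drawn by distance from the transcription start in kb, with 1 colour per list, black lines for the transcripts (ending at the border of the plot for Mdm2 and Fas) and a grey band for 2 kb each side. Nup153 regions cover the starts of 5 genes, and at Trp53 the Oct4, Ring1B and Cbx7 peaks of ESC lie on top of each other 1.6 to 1.8 kb after the start.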

How the data were processed

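RNA-seq, ChIP-seq and DamID files were used as deposited. Per the submitters' processing notes the authors used CASAVA 1.8.2, STAR 2.2.0c, Bowtie2 2.1.0, HOMER 4.6 and edgeR with mm9. The authors deposited RNA as FPKM, with 1 transcript per gene. Per the file headers, ChIP peaks came from HOMER findPeaks against an IgG library named for ESC (also for the NeuP list), in factor style for Oct4 and histone style for Ring1B and Cbx7, each from 1 library. How DamID replicates and the GFP control were combined is not stated in the labels.

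Depth was recovered from the steps of low FPKM values, of which 100% came out whole within 0.1 read. Limma 3.58.1 (R 4.3.3) was fitted as limma-trend to log2(FPKM + 1) of the 13750 genes that reached 1 FPKM in any library, in 1 fit of 3 groups, two-sided, with Benjamini-Hochberg adjustment and a threshold of 0.05. The fit had 2 residual degrees of freedom plus 1.74 from moderation. The single control took its spread from the hairpin and NeuP pairs. A fold on this scale understates changes of low genes. The fit was also run on simulated counts with 1 spread setting for all 5 libraries. The unequal spread of the hairpin and NeuP pairs was not simulated. Peak overlap needed 1 bp (Python 3.11.15, pandas 2.3.3).

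The genes, lists and alternatives were chosen with earlier results of these data known. The 10 genes were named in all readouts. From each other list the called genes with the largest change (up to 2 each way) were named, or, with none called, the gene with the largest change. Aurka, Chek1 and Dram1 were chosen after their values were seen, as was Ppm1d for NeuP.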

Additional observations from a re-analysis of the deposited data

How the results depend on the processing

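Without a filter on low values limma called 230 genes in the knockdown, 0.958% of all genes, and 0 of the 10 genes. In NeuP, leaving out 1 library moved the genes called to between 1822 and 11245 of all genes and to between 1 and 9 of the 10, and with the control and NeuP libraries alone 1858 and 1 were called. These fits have fewer samples and take their spread from other libraries. Pseudocounts of 0.1 and 5, quantile normalization and voom each called the same 6 of the 10, beside 41.3% to 43.4% of all genes tested. No filter called 4 (Bbc3, Perp, Pmaip1 and Aen), beside 22.4% of all genes. The adjusted p by limma was then 0.0511 for Mdm2 and 0.114 for Ccng1. No difference of the 10 genes in NeuP changed sign. With windows of 1 kb the counts at starts fell to 0 for Oct4 in control ESC, for Oct4 in hairpin #2 and for Ring1B in hairpin #4, because the Trp53 peaks begin further out. The shares of all genes were then 0.475%, 0.425% and 7.41%. With 5 kb added to each side of the genes the count was 5 for Oct4 DamID, against 8.48% of all genes. It was also 5 for Ring1B in control ESC (23.2% of all genes), hairpin #2 (37.0%) and NeuP (24.9%). No paired analysis was possible because there is a single control RNA library and no label links the RNA libraries as pairs. In NeuP, depth limits Perp and Pmaip1, which rest on few reads.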
